A study of Danio rerio with 12 samples.

Results

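The heat shock and chaperone genes of *IRF4*-driven zebrafish tumors were described here in cells treated with JQ1 or with its vehicle DMSO. A gene was taken as a member when its name, whatever the case of its letters, began with hsp, dnaj, cct followed by 2 to 8, bag followed by 1 to 6, or hsf followed by a number, and hspg2 and hspbap1 were left out. This rule gave 108 of the 25607 zebrafish genes of the count table, and no measured value was used in it. The members comprised 32 class C, 14 class B and 6 class A HSP40 genes, 19 HSP70 and HSP110 genes, 10 small HSP genes, 8 subunit genes of the chaperonin TRiC, 7 BAG genes, 5 HSF genes, 4 HSP90 genes, the 2 genes of the mitochondrial chaperonin, and *hspbp1*. Families were made by name, so the HSF genes include *hsf2bp*, which is not itself a heat shock factor gene.

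Chaperones hold unfolded proteins and help them to fold. HSP70 binds short stretches of unfolded chain, HSP40 (DNAJ) proteins bring substrates to it and stimulate its ATPase, and HSP110 and BAG proteins release its nucleotide. HSP90 acts later on kinases, receptors and other clients, TRiC folds actin and tubulin inside a closed chamber, and the transcription factor HSF1 raises many of these genes after heat or other proteotoxic stress. Tumor cells are known to depend on chaperones to keep their signaling proteins folded.

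RNA-seq was performed on mCherry-sorted tumor cells from 4 groups of 3 libraries, and the labels state that independent animals were used. All fish carried human *IRF4* and the fluorescent marker mCherry under the zebrafish *lck* promoter, which is active in lymphocytes, so no group lacked the transgenes. Fish with tumors were kept in individual tanks with 4 μM JQ1, a small-molecule inhibitor of BET bromodomain proteins, or with DMSO. The libraries are labelled day 1 or day 3, and the group names here are DMSO day 1, JQ1 day 1, DMSO day 3 and JQ1 day 3. The labels give neither age nor *p53* genotype. The paper's reporting summary names *lck:IRF4* fish of adult age for its regular RNA-seq. The JQ1-treated fish shown by microscopy are given as wild type for *p53*, and the methods describe treated fish of mixed gender. P-values measure the spread between these 3 animals of a group.

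Each library held between 8176139 and 12771912 counts of zebrafish genes and between 89800 and 527562 of ERCC spike-ins. A level is given as CPM, the counts per 1e+06 counts on zebrafish genes after TMM normalization, and sums over a list are CPM without TMM. For a gene at 0 counts the upper limit (3 counts) was 0.235 to 0.367 CPM, depending on the library, and covers counting error only. The libraries held RNA of other cell types beside that of T cells, and no list had a marker at 0 in all 12 libraries. The 4 of 4 T-cell markers (*bcl11ba*, *themis*, *lat* and *lck*) summed to 2689 to 3271 CPM in DMSO day 3 and to 627 to 2001 CPM in JQ1 day 3. The 4 of 4 macrophage markers went the other way, from 25.0 to 132 CPM in DMSO day 3 to 298 to 1970.5 CPM in JQ1 day 3. The 10 of 11 germ-cell markers that were found summed to 22.7 to 50.4 CPM in DMSO day 3 and to 189.9 to 1596 CPM in JQ1 day 3, and the 11 of 14 muscle markers to 1.83 to 20.9 and 13.6 to 151 CPM. Human *IRF4* and mCherry together had 6790.5 to 11527 CPM in DMSO day 3 and 786 to 6294 CPM in JQ1 day 3. JQ1 day 3 replicate 2 had the lowest T-cell and transgene sums and the highest macrophage, germ-cell and muscle sums of all 12 libraries. In sorted bulk samples fewer cells of a type and less RNA per cell cannot be told apart.

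The first comparison asked how the chaperone genes differed between JQ1 and DMSO at day 3. Of the 108 members 92 had enough counts for the test, and 25 passed an adjusted p of 0.05 (edgeR's quasi-likelihood test, Benjamini-Hochberg adjustment over all genes tested). These were 12 higher and 13 lower in JQ1, against 15.0% higher and 9.96% lower among the 16271 genes tested and 24.9% in either direction. At 13.04% higher and 14.1% lower the members were near this background. Their median log2 fold change was −0.32, against 0.05 over all genes, and 59 of 92 were lower. The levels of 30 members lay below DMSO in every JQ1 library and those of 14 above it, against 26.5% and 24.8% of all genes. All 25 genes called had groups that did not overlap. Among those called higher, *hsf2bp*, *hspb8*, *dnajc11b*, *hspa8b*, *hspb6*, *dnajc6* and *hspa12a* passed the filter on low counts only through the JQ1 libraries. These genes had to differ to be tested, and *dnajb2* and *bag3* also needed JQ1 libraries to pass the filter.

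The balance of higher and lower calls depended on the scaling. With library factors from the ERCC spike-ins, which were added by cell number, the median over all genes moved from 0.05 to −0.38 and the median over the members from −0.32 to −0.79. Then 8 members were called higher and 31 lower, against 11.1% and 23.8% of all genes. All 13 members called lower and 8 of the 12 called higher were called again with this scaling. The calls also depended on single libraries. Without JQ1 day 3 replicate 2 only *dnajc9* was called among the members, against 491 of all genes. Without any 1 of the 3 DMSO day 3 libraries no member and no other gene was called. In those fits 29 to 32 members had an unadjusted p under 0.05 (edgeR), against 6061 to 6538 of all genes. In the full comparison it was 36 of 92 members, a share no larger than the 7090 of 16271 genes.

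**Figure D1:**
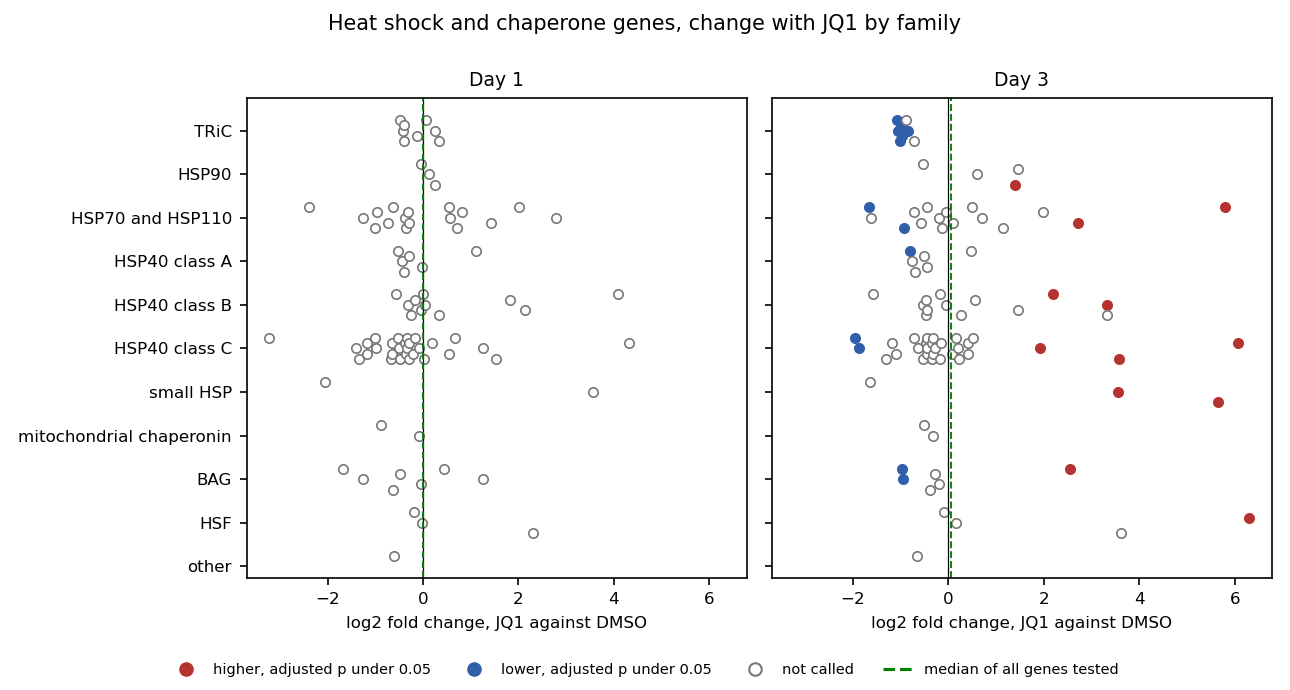
Log2 fold change (x axis) between JQ1 and DMSO for each member tested, by family (y axis), at day 1 (left) and day 3 (right). Filled points passed an adjusted p of 0.05 in edgeR, open points did not, and the dashed line is the median of all genes tested. The 8 TRiC genes lie between −1.08 and −0.71 at day 3, while the called members to the right are spread over 7 families. The called gene in the HSF row is *hsf2bp*, which is there by name only.

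Most TRiC subunit genes fell at day 3. TRiC is built from 8 different subunits, and the members hold *cct3*, *cct4*, *cct5*, *cct6b*, *cct7*, *cct8* and 2 gene identifiers that are both named *cct2*. Of these 8 genes 6 were called lower (75.0%, against 9.96% of all genes). All 8 lay below DMSO in every JQ1 library, against 26.5% of all genes. Their log2 fold changes ranged from −1.08 to −0.71 with a median of −0.98. Summed over the 8 genes, the level was 4504 to 4916 CPM in DMSO day 3 and 2242 to 3339 CPM in JQ1 day 3.

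*cct5* (ENSDARG00000045399) had 549, 586 and 561 CPM in DMSO day 3 and 327, 226 and 266 CPM in JQ1 day 3. Its DMSO libraries were close to each other, and the highest JQ1 library lay well below them. The log2 fold change was −0.99 (SE 0.21, edgeR adjusted p = 0.0275). *cct3* (ENSDARG00000016173) went from 685, 695 and 718 CPM to 385, 204 and 367 CPM, a log2 fold change of −1.08 (SE 0.28, edgeR adjusted p = 0.0367). *cct8* (ENSDARG00000008243) went from 684, 850.1 and 627 CPM to 402, 233 and 366 CPM (−1.05, SE 0.27, edgeR adjusted p = 0.0365). In both genes JQ1 replicate 2 was the lowest library, as it was in 6 of the 8 genes.

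The exceptions were the *cct2* pair, where JQ1 replicate 1 was lowest. The *cct2* gene with more counts (ENSDARG00000104674) had 439, 364 and 386 CPM in DMSO day 3 and 148, 175 and 243 CPM in JQ1 day 3 (−1.01, SE 0.25, edgeR adjusted p = 0.0319). The other one (ENSDARG00000087206) had 97.9, 71.4 and 78.1 CPM and 36.8, 39.3 and 56.7 CPM (−0.84, SE 0.24, edgeR adjusted p = 0.0455). Only reads mapped to a single place were counted, so reads shared by near-identical copies were lost and the levels of this pair are uncertain. *cct7* (−0.97, SE 0.25, edgeR adjusted p = 0.0355) completed the 6 genes called.

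*cct4* and *cct6b* did not pass the threshold. *cct4* had 1247, 895 and 1085 CPM in DMSO day 3 and 685, 349 and 639.6 CPM in JQ1 day 3 (−0.89, SE 0.31, edgeR adjusted p = 0.0722). *cct6b* had 885, 758 and 958 CPM and 647, 331 and 549.9 CPM (−0.71, SE 0.29, edgeR adjusted p = 0.107). With ERCC scaling all 8 genes were called lower, against 23.8% of all genes. Their median was then −1.42, against −0.38 over all genes. Without JQ1 replicate 2 the log2 fold changes were −0.98 to −0.50 and 0 of 8 were called, and without any 1 DMSO library 0 of 8 were called either. All 8 stayed negative in each of these fits. The T-cell marker sum and the transgene sum were lowest in the same library as 6 of the 8 TRiC genes, and their part in the TRiC values was not tested.

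Genes that work with TRiC lay in the same direction. *tcp1*, which encodes the TRiC subunit that the name rule does not reach, fell with a log2 fold change of −1.03 (SE 0.23, edgeR adjusted p = 0.028). Prefoldin hands unfolded actin and tubulin to TRiC, and all 6 of its subunit genes had a negative value, with a median of −0.86. Of these *pfdn4* (−1.41, edgeR adjusted p = 0.025) and *pfdn5* (−1.04, edgeR adjusted p = 0.046) passed the threshold (33.3%, against 9.96% of all genes). Without JQ1 day 3 replicate 2, or without any 1 DMSO day 3 library, 0 of the 6 were called, while all 6 stayed negative. DESeq2 size factors in edgeR and the fit without a filter called 1 each, DESeq2 4 and ERCC scaling 5. Over all genes DESeq2 called 6292 in either direction, and ERCC scaling called 23.8% lower.

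**Figure D2:**
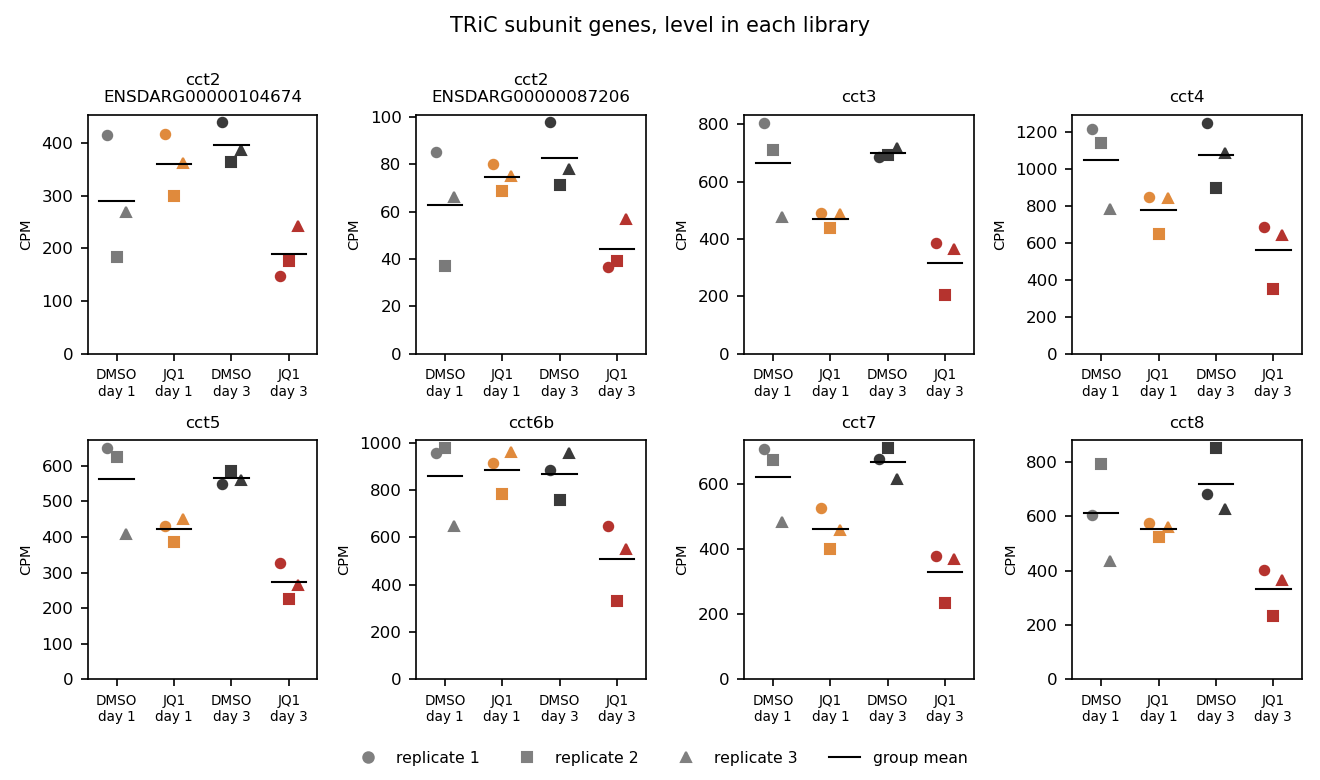
Level of each TRiC gene (y axis, CPM after TMM normalization) in each of the 12 libraries, by group (x axis). Symbols are replicates and bars are group means. In each panel the 3 JQ1 day 3 libraries lie below the 3 DMSO day 3 libraries, while the day 1 groups overlap.

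Among the 4 HSP90 genes 1 was called higher (25.0%, against 15.0% of all genes) and 0 lower. The gene the table names *hsp90aa1* (ENSDARG00000024746), for the stress-responsive cytosolic HSP90, had 33.7, 39.5 and 24.3 CPM in DMSO day 3 and 77.5, 105 and 63.3 CPM in JQ1 day 3. The lowest JQ1 library was above the highest DMSO library. Its log2 fold change was 1.39 (SE 0.28, edgeR adjusted p = 0.0265). With ERCC scaling it was 1.00 and no longer passed (edgeR adjusted p = 0.0646). The value was 1.15 to 1.503 with 1 library left out, and the adjusted p rose to up to 0.0903.

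Its neighbor copy *hsp90aa1.1*, known in zebrafish muscle for the folding of myosin, had at most 1.58 CPM in any library. Reads common to both copies were not counted. *hsp90ab1*, the constitutive cytosolic HSP90, took more counts than any other member, with 12054, 6823 and 15149.8 CPM in DMSO day 3 and 9403, 4956 and 8186 CPM in JQ1 day 3. The groups overlapped, the log2 fold change was −0.54 (SE 0.40), and it did not pass (edgeR adjusted p = 0.33).

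Co-chaperone and partner genes outside the name rule were mostly lower. This list was chosen by function and is not limited to partners of HSP90 and HSP70. Of 32 such genes tested, *tcp1* included, 8 were called lower (25.0%, against 9.96% of all genes) and 0 higher, with a median log2 fold change of −0.50 and 23 negative values. An unadjusted p under 0.05 (edgeR) was found in 15 of them, against 7090 of 16271 genes. Without JQ1 day 3 replicate 2, or without any 1 DMSO day 3 library, 0 were called. In these fits 11 to 13 had an unadjusted p under 0.05 (edgeR), against 6033 to 6538 of all genes. ERCC scaling called 16 lower, against 23.8% of all genes. DESeq2 called 10 lower and 2 higher, against 6292 of all genes in either direction. The genes called included *stip1*, which links HSP70 to HSP90 (−0.77, edgeR adjusted p = 0.039), *fkbp4* (−1.05, edgeR adjusted p = 0.024) and *ppid* (−0.93, edgeR adjusted p = 0.031), a pair of HSP90-bound prolyl isomerases, and *sugt1*, an HSP90 adaptor (−0.76, edgeR adjusted p = 0.031). *cdc37*, which brings kinases to HSP90, had −0.73 and did not pass (edgeR adjusted p = 0.053).

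Chaperone genes of the endoplasmic reticulum had mostly positive values. This compartment folds secreted and membrane proteins, and its chaperones are raised by the unfolded protein response. All 10 members of the list were tested, 2 were called higher against 0 lower, with 8 positive values and a median of 0.71 on the log2 scale. The 20.0% called higher was near the 15.0% of all genes, and without JQ1 day 3 replicate 3 the median was 0.29, with 0 genes called, 3 at an unadjusted p under 0.05 and 4 negative values. *dnajc3a* (ENSDARG00000041110), a lumenal co-chaperone of BiP, had 4.91, 4.14 and 3.28 CPM in DMSO day 3 and 7.41, 15.8 and 21.7 CPM in JQ1 day 3 (1.92, SE 0.48, edgeR adjusted p = 0.0339). A gene named *dnajb9* (ENSDARG00000016886), for the co-chaperone ERdj4, had 2.84, 2.72 and 0.956 CPM and 4.5, 10.7 and 13.8 CPM (2.196, SE 0.64, edgeR adjusted p = 0.0468). In both of these called genes JQ1 replicate 3 was the highest and replicate 1 the lowest of the JQ1 libraries, and the groups did not overlap. The other gene named *dnajb9* (ENSDARG00000052072) did not pass in edgeR, and its JQ1 libraries lay above DMSO without overlap on both days.

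The same order held in *hspa5* and *hsp90b1*, which did not pass. *hspa5* (ENSDARG00000103846), the HSP70 of this compartment known as BiP, had 438, 404 and 278 CPM in DMSO day 3 and 384, 672 and 1331 CPM in JQ1 day 3. Its JQ1 replicate 1 lay within the DMSO range. The log2 fold change was 1.15 (SE 0.46, edgeR adjusted p = 0.103), and 0.52 without JQ1 replicate 3. *hsp90b1* (ENSDARG00000003570), the HSP90 of this compartment, had 218, 291 and 155 CPM and 191, 393 and 1171 CPM. Its log2 fold change was 1.46 (SE 0.64, edgeR adjusted p = 0.129), and 0.42 without JQ1 replicate 3. *dnajb11*, another BiP co-chaperone, had 68.3, 93.1 and 63.8 CPM and 47.9, 68.5 and 145 CPM, so 1 JQ1 library was again far above the others.

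JQ1 replicate 3 also had the highest B-cell marker sum of the day 3 libraries, with a range of 364 to 2245 CPM in DMSO day 3 and 2704 to 4369 CPM in JQ1 day 3 for 8 of 8 markers found. Most of this sum was *cd74a*, which other antigen-presenting cells also express (3782 CPM after TMM in JQ1 replicate 3), and the list as a whole had 4 positive and 4 negative values, with 0 called in edgeR and 1 at an unadjusted p under 0.05. *cd79a*, a part of the B-cell receptor, had 25.1, 21.5 and 1.37 CPM in DMSO day 3 and 3.66, 3.51 and 4.19 CPM in JQ1 day 3. Macrophage markers in this group ranged from 298 to 1970.5 CPM. Their part in the values of the endoplasmic reticulum genes was not tested. With ERCC scaling *dnajc3a* (1.45, edgeR adjusted p = 0.0587) and *dnajb9* (1.72, edgeR adjusted p = 0.0787) no longer passed, and the list's median was 0.21. Of the 22 other genes of the unfolded protein response that were tested, 2 were called higher and 0 lower, with a median of 0.25, and these 9.09% lay below the 15.0% of all genes called higher. They were *xbp1*, its spliced transcription factor (1.97, edgeR adjusted p = 0.028), and *canx*, the membrane lectin calnexin (1.14, edgeR adjusted p = 0.043). *ddit3*, a stress-induced transcription factor of the same response, had 0.15 (edgeR adjusted p = 0.827).

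**Figure D3:**
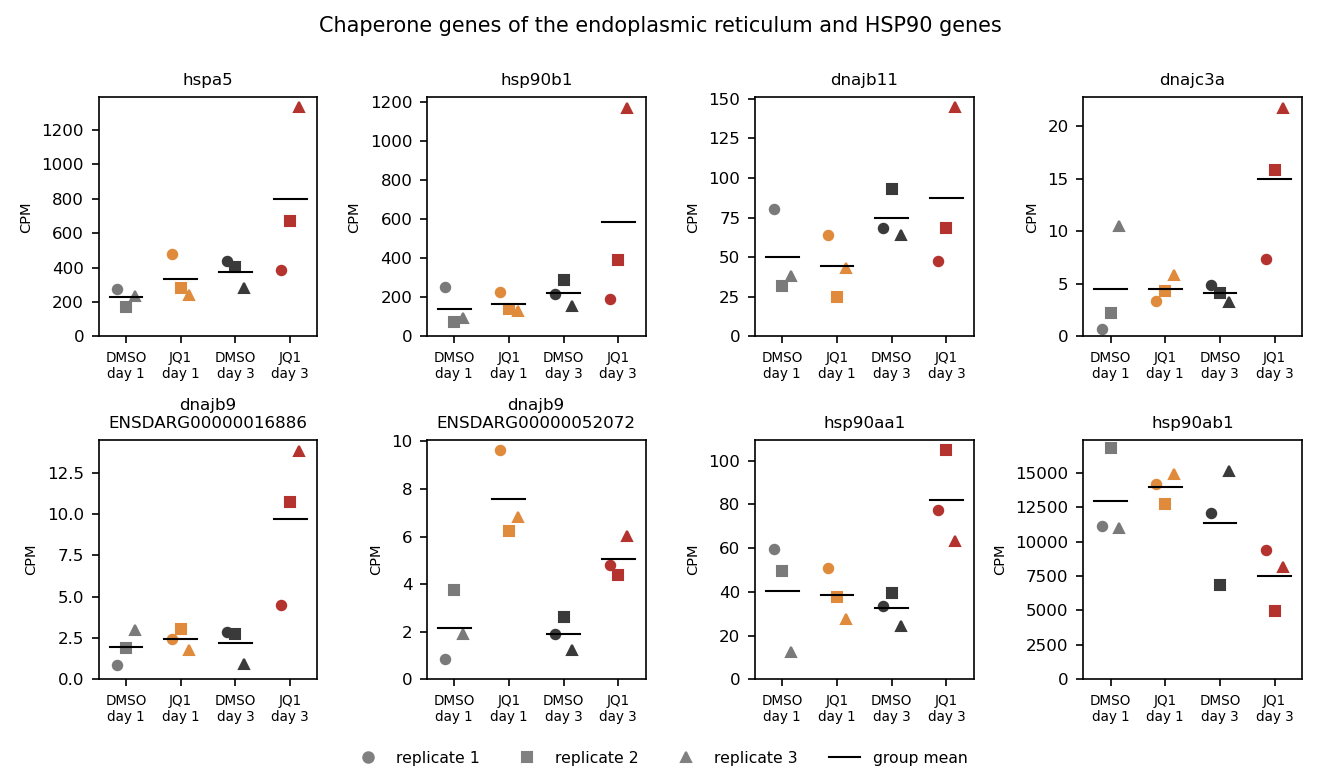
Level of chaperone genes of the endoplasmic reticulum and of 2 cytosolic HSP90 genes (y axis, CPM after TMM normalization) in each of the 12 libraries, by group (x axis). Symbols are replicates and bars are group means. JQ1 day 3 replicate 3 is the highest library in *hspa5* (1331 CPM) and *hsp90b1* (1171 CPM), while for *hsp90aa1* all JQ1 day 3 libraries lie above all DMSO day 3 libraries.

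Of the 16 HSP70 and HSP110 genes tested at day 3, 2 were called higher and 2 lower, or 12.5% each, near the 15.0% and 9.96% of all genes. *hspa8*, the constitutive cytosolic HSP70, had 3146, 2630.2 and 2211 CPM in DMSO day 3 and 3578, 2091 and 1759.7 CPM in JQ1 day 3. The groups overlapped, with a log2 fold change of −0.05 (SE 0.34, edgeR adjusted p = 0.924). Its paralog *hspa8b* (ENSDARG00000037403) was almost without counts in DMSO day 3, with 0.0861, 0 and 0.683 CPM, and had 7.1, 27.5 and 3.95 CPM in JQ1 day 3. All JQ1 libraries were above DMSO and JQ1 replicate 2 was highest. The log2 fold change was 5.80 (SE 1.32, edgeR adjusted p = 0.0297), with 4.53 to 7.80 when 1 library was left out. In the DMSO day 1 libraries *hspa8b* was already uneven, with 6.6, 0.0959 and 0.586 CPM.

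*hsph1* (ENSDARG00000019874), an HSP110 gene that heat induces, fell. It had 12.3, 10.03 and 22.4 CPM in DMSO day 3 and 3.36, 3.94 and 6.16 CPM in JQ1 day 3 (−1.67, SE 0.46, edgeR adjusted p = 0.0408). *hspa14*, an atypical HSP70 that in human cells sits at the ribosome with DNAJC2, had 106, 77.2 and 91.3 CPM and 55.7, 33.9 and 48.4 CPM (−0.94, SE 0.25, edgeR adjusted p = 0.0371). *dnajc2* itself had 54.9, 70.8 and 58.3 CPM and 33.1, 22.4 and 58.1 CPM (−0.64, edgeR adjusted p = 0.201). Its JQ1 replicate 3 lay close to DMSO. Without that library, picked after its value was seen, the log2 fold change was −1.13. The pair of HSP110 genes named *hspa4* had log2 fold changes of −0.45 (ENSDARG00000004754, edgeR adjusted p = 0.239) and −0.57 (ENSDARG00000018989, edgeR adjusted p = 0.0826). *hspa12a*, a distant relative of HSP70, had 0.516, 0.545 and 0.546 CPM in DMSO day 3 and 3.28, 5.13 and 1.82 CPM in JQ1 day 3 (2.71, SE 0.63, edgeR adjusted p = 0.0304).

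The classical heat-inducible HSP70 genes varied widely between animals of a group and did not pass. *hsp70l* had 47.3, 43.4 and 1.64 CPM in DMSO day 3 and 9.39, 15.8 and 3.32 CPM in JQ1 day 3 (−1.63, SE 1.07, edgeR adjusted p = 0.276). *hsp70.3* had 34.6, 25.1 and 3.01 CPM and 15.0, 29.5 and 10.03 CPM (−0.14, SE 0.81, edgeR adjusted p = 0.908). DMSO replicate 3 was the lowest library of day 3 in both. *hsp70.1* (17.9, 15.1 and 0.683 CPM in DMSO day 3) and the gene named *hspa2* (19.7, 13.4 and 1.64 CPM) were low in that same library. Neighboring copies of *hsp70* are near-identical and reads they share were not counted, so the levels of *hsp70.1* and *hsp70.3* are uncertain.

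Among the 14 genes tested of the heat-inducible list, 3 were called higher (*hspa8b*, *hsp90aa1* and *bag3*) and 1 lower (*hsph1*), with a median of −0.38, against 15.0% higher and 9.96% lower over all genes. *hspa8b* and *bag3* needed JQ1 libraries to pass the filter on low counts, so the number called higher was partly set by the filter. With ERCC scaling 1 was called higher and 5 lower, against 11.1% and 23.8% of all genes. The median was then −0.84, against −0.38 over all genes. *dnajb1b*, an HSP40 gene that works with inducible HSP70, had 67.4, 36.7 and 25.7 CPM in DMSO day 3 and 41.5, 17.7 and 33.0 CPM in JQ1 day 3 (−0.44, SE 0.45, edgeR adjusted p = 0.474). Its groups overlapped.

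**Figure D4:**
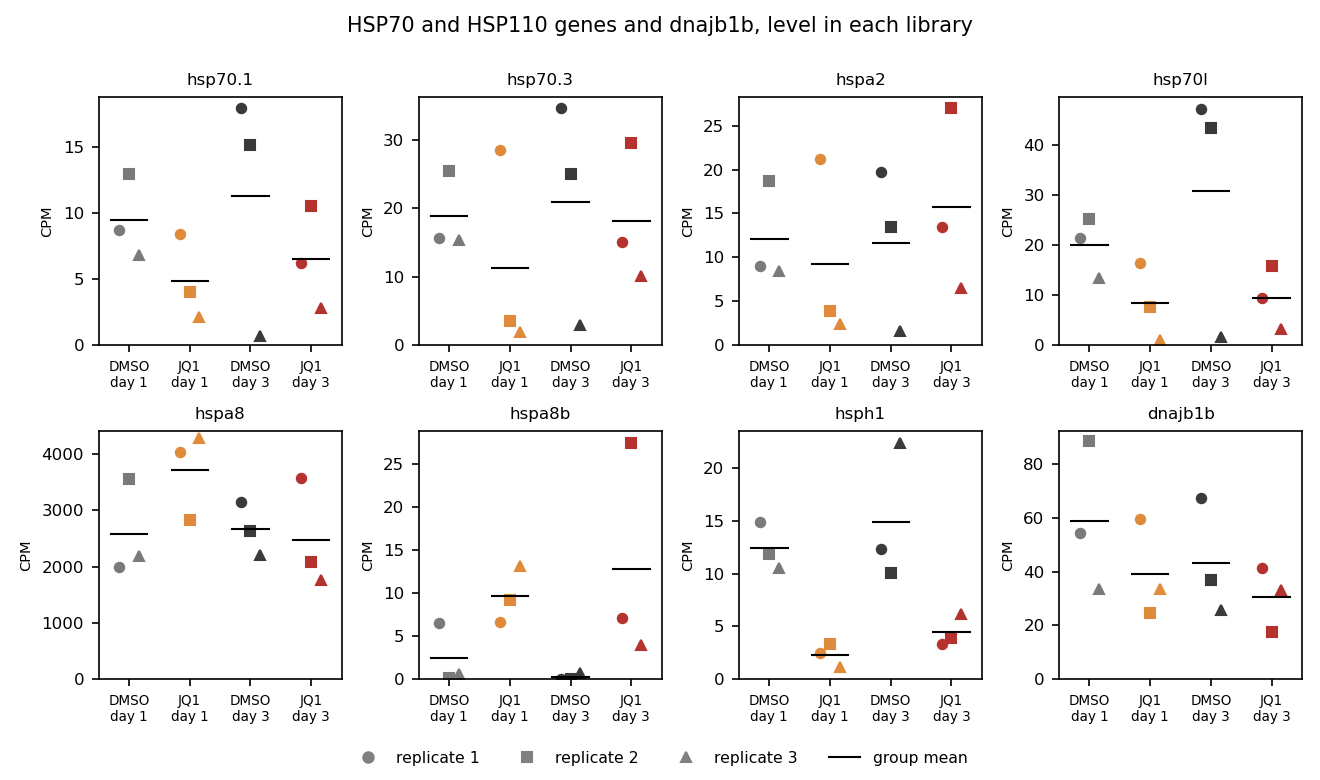
Level of HSP70 and HSP110 genes and of *dnajb1b* (y axis, CPM after TMM normalization) in each of the 12 libraries, by group (x axis). Symbols are replicates and bars are group means. *hsp70.1*, *hsp70.3*, *hspa2* and *hsp70l* share the low values of DMSO day 3 replicate 3 and of JQ1 day 1 replicates 2 and 3, whereas *hsph1* is lower in all JQ1 libraries of both days.

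The HSP40 genes were the largest family, and most of them did not pass. Of 6 class A genes 1 was called lower and 0 higher, of 13 class B genes tested 2 were called higher and 0 lower, and of 29 class C genes tested 3 were called higher and 2 lower. Over all genes 15.0% were called higher and 9.96% lower. *dnajc9* (ENSDARG00000031293), a histone chaperone in human cells, had 41.8, 49.0 and 35.4 CPM in DMSO day 3 and 8.4, 13.5 and 11.1 CPM in JQ1 day 3. The highest JQ1 library was below the lowest DMSO library by more than the spread within either group. The log2 fold change was −1.87 (SE 0.28, edgeR adjusted p = 0.0218), the smallest adjusted p of the 92 members, and it was called without any 1 JQ1 library as well.

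*dnajc27* (ENSDARG00000070916), a Rab-like small GTPase with a J domain, had 15.8, 10.9 and 19.1 CPM in DMSO day 3 and 4.12, 4.82 and 2.29 CPM in JQ1 day 3 (−1.96, SE 0.44, edgeR adjusted p = 0.0285). It had the most negative value of the members at day 3. *dnaja2* (ENSDARG00000010745), a cytosolic HSP40, had 125, 157 and 159 CPM and 100.3, 62.6 and 81.0 CPM (−0.80, SE 0.23, edgeR adjusted p = 0.0455). The other gene of that name (ENSDARG00000104066) had −0.44 (SE 0.18) and did not pass (edgeR adjusted p = 0.112). *dnaja1*, the farnesylated partner of HSC70, had 13.9, 17.3 and 15.4 CPM and 6.72, 5.32 and 14.3 CPM (−0.77, edgeR adjusted p = 0.207). Without JQ1 replicate 3, picked after its value was seen, the log2 fold change was −1.36.

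The HSP40 genes called higher had low levels in DMSO. *dnajb2*, which in mammals is best known from neurons, had 0.0861, 0.763 and 0.956 CPM in DMSO day 3 and 6.87, 5.57 and 4.5 CPM in JQ1 day 3 (3.31, SE 0.82, edgeR adjusted p = 0.0333). *dnajc6*, or auxilin, which uncoats clathrin vesicles, had 0.0861, 0.654 and 0.137 CPM and 1.83, 5.07 and 3.32 CPM (3.57, SE 0.90, edgeR adjusted p = 0.0341). *dnajc11b* had 2 counts over the 3 DMSO day 3 libraries and 238 over the 3 JQ1 day 3 libraries, a ratio of 80.2 (95% exact interval 22.0 to 666, counting error only). Its paralog *dnajc11*, a mitochondrial membrane protein, lay on the other side, with a log2 fold change of −0.54 (edgeR adjusted p = 0.074).

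Chaperone genes of the mitochondrion were otherwise a little lower without passing. Apart from *dnajc11b*, all 9 genes tested of this list had a negative value and 0 were called in edgeR, with 3 of them at an unadjusted p under 0.05 and *dnajc11* and *dnajc30b* called by DESeq2. With ERCC scaling edgeR called 4 of them lower, against 23.8% of all genes. The list's median moved from −0.48 to −0.91, against −0.38 over all genes with this scaling. *hspd1* (HSP60) had 181, 203 and 171 CPM in DMSO day 3 and 135, 116 and 177 CPM in JQ1 day 3 (−0.32, SE 0.22, edgeR adjusted p = 0.288). Its neighbor and partner *hspe1* (HSP10) had −0.51 (SE 0.25, edgeR adjusted p = 0.159). *hspa9*, the mitochondrial HSP70, had −0.20 (SE 0.21, edgeR adjusted p = 0.494).

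Of the 6 BAG genes tested at day 3, 5 had a negative value and the median was −0.33. The 2 called lower (33.3%) and 1 called higher (16.7%) stand against 9.96% and 15.0% of all genes. *bag1*, a nucleotide exchange factor of HSP70, had 27.3, 32.9 and 39.2 CPM in DMSO day 3 and 16.9, 12.5 and 19.4 CPM in JQ1 day 3 (−0.97, SE 0.27, edgeR adjusted p = 0.0408). *bag6l*, a paralog of *bag6*, had 76.4, 61.5 and 58.3 CPM and 35.5, 28.0 and 34.2 CPM (−0.95, SE 0.21, edgeR adjusted p = 0.0275). *bag6*, which guides tail-anchored and misfolded proteins, did not pass, with overlapping groups and a value of −0.28 (SE 0.23, edgeR adjusted p = 0.375). *bag3*, which with HSPB8 directs damaged proteins to autophagy and is strongly expressed in muscle, rose from 0.861, 1.2 and 0.546 CPM to 6.03, 7.14 and 1.74 CPM (2.56, SE 0.72, edgeR adjusted p = 0.0432). With ERCC scaling *bag3* had 2.22 and did not pass (edgeR adjusted p = 0.0663).

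Small HSP genes hold unfolded proteins without ATP, and 3 of the 10 had enough counts at day 3. *hspb8* had 1 count in DMSO day 3 and 98 in JQ1 day 3, a ratio of 66.0 (95% exact interval 11.6 to 2634, counting error only). *hspb6*, a small HSP of muscle in mammals, had 0.0861, 0.327 and 0.137 CPM and 1.15, 3.69 and 1.58 CPM (3.56, SE 0.84, edgeR adjusted p = 0.0311). *hspb1* (HSP27) did not pass the filter on low counts, with 0.172, 0.109 and 0.137 CPM in DMSO day 3 and 2.98, 14.9 and 0.632 CPM in JQ1 day 3, of which replicate 2 was by far the highest. That library also had the highest muscle marker sum (151 CPM) and the highest levels of *hspb6*, *hspb8* and *bag3* in the group. The part of muscle RNA in these values was not tested. *hspb11*, which is also a part of intraflagellar transport, had 3.87, 4.58 and 3.42 CPM and 2.37, 1.25 and 0 CPM (−1.64, edgeR adjusted p = 0.301).

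The heat shock factor genes *hsf1* and *hsf2* did not pass the test. *hsf1* had 93.9, 77.8 and 98.1 CPM in DMSO day 3 and 89.2, 117 and 82.1 CPM in JQ1 day 3 (0.16, SE 0.22, edgeR adjusted p = 0.599). *hsf2* had 45.9, 44.9 and 64.2 CPM and 52.3, 43.3 and 44.2 CPM (−0.09, SE 0.22, edgeR adjusted p = 0.773). Both genes had overlapping groups at day 3. *hsf4*, a factor of the lens, had 0 counts in DMSO day 3 and 13 in JQ1 day 3, which is at least 2.92-fold higher against a floor of 3 counts over the group.

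A few members known from the germ line or from flagella are given by library, chosen after their values were seen, and *hsf5* and *dnajb13* among them did not pass. *hsf2bp*, which in mouse acts in meiotic recombination, had 1 count in DMSO day 3 and 154 in JQ1 day 3, a ratio of 104 (95% exact interval 18.3 to 4125, counting error only), at 6.03, 3.94 and 0.948 CPM. *hsf5*, a factor of spermatogenesis, had 0.861, 0.763 and 3.69 CPM and 38.6, 20.8 and 2.29 CPM (3.62, SE 1.11, edgeR adjusted p = 0.0537). *dnajb13*, a radial spoke protein of flagella and motile cilia, had 0, 0.327 and 1.64 CPM and 13.1, 5.01 and 0 CPM (3.32, SE 1.87, edgeR adjusted p = 0.212).

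JQ1 replicate 3 was the lowest JQ1 library in all of these genes and in *dnajc11b*. The germ-cell marker sum was lowest in that library as well, 189.9 CPM against 763 and 1596 CPM in replicates 1 and 2, and so was the sum of 10 motile cilium and flagellum markers, 8.4 CPM against 482 and 206 CPM. Without JQ1 replicate 3 the log2 fold change was 4.11 for *hsf5* and 3.87 for *dnajb13*. This fit was picked after the low values of that library were seen, so its p-values are not given. The part of germ-cell RNA in these values was not tested. Of the 12 members called higher, JQ1 replicate 3 was the lowest JQ1 library in 8 and replicate 2 the highest in 7. In 9 of the 12 the mean in JQ1 was under 10 CPM, while all 13 members called lower had a DMSO mean above that.

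**Figure D5:**
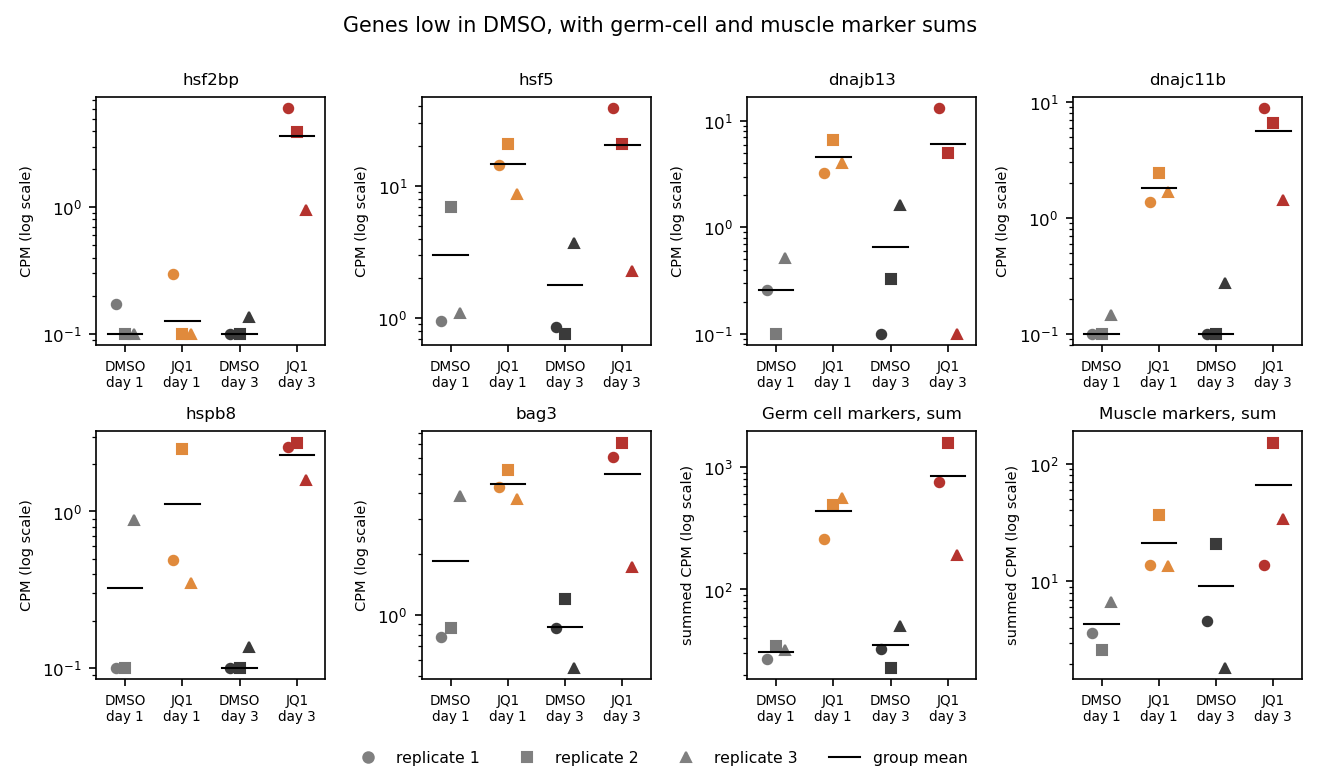
Level of 6 members with low values in DMSO (y axis, CPM after TMM normalization, log scale) and summed levels of germ-cell and muscle markers (CPM without TMM, log scale) in each of the 12 libraries, by group (x axis). Symbols are replicates, bars are group means, and values under 0.1 are drawn at 0.1. In *hsf2bp*, *hsf5*, *dnajb13* and *dnajc11b*, as in the germ-cell sum, JQ1 day 3 replicate 3 is the lowest of the JQ1 day 3 libraries.

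The same comparison at day 1 called no member. Of 89 members tested 0 passed an adjusted p of 0.05 in edgeR, while 16 had an unadjusted p under 0.05 (7 higher and 9 lower) against 22.2% of all genes. Over all 15813 genes edgeR called 0.0443%. DESeq2 called 6 members higher and 4 lower, against 12.8% of all genes, so the members did not exceed the background in either count. The levels of 16 members lay below DMSO in every JQ1 library and those of 12 above it, against 14.8% and 16.3% of all genes. The median log2 fold change was −0.30, against 0.00 over all genes. With ERCC scaling, by which all genes had a median of −1.51, 53 members were called lower and 0 higher, against 41.4% lower over all genes. The ERCC counts were 110190, 109830 and 142795 in DMSO day 1 and 183496, 428277 and 527562 in JQ1 day 1, so JQ1 replicate 1 lay nearest to DMSO.

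The members closest to the threshold at day 1 were among those called lower at day 3. *dnajc27* had 14.5, 12.7 and 11.4 CPM in DMSO day 1 and 0.785, 0.955 and 2.28 CPM in JQ1 day 1 (−3.22, SE 0.56, edgeR adjusted p = 0.0612). *bag6l* had 71.0, 54.8 and 61.8 CPM and 19.5, 30.1 and 27.8 CPM (−1.26, SE 0.27, edgeR adjusted p = 0.0688). *hsph1* had 14.8, 11.9 and 10.5 CPM and 2.45, 3.39 and 1.14 CPM (−2.40, SE 0.52, edgeR adjusted p = 0.0706). In all of them the groups stood far apart. Each passed when DMSO day 1 replicate 3 was left out (edgeR adjusted p = 0.0324, 0.0453 and 0.0432), and each was called by DESeq2. Over all genes edgeR called 1600 in that fit, against 7 with all libraries of the day. When any other single library of day 1 was left out, no member was called.

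On the other side *dnajc11b* (4.32, edgeR adjusted p = 0.077), *dnajb13* (4.08, edgeR adjusted p = 0.0867) and *hspb6* (3.57, edgeR adjusted p = 0.088) had the largest values at day 1. *dnajb13* had 0.26, 0 and 0.513 CPM in DMSO day 1 and 3.24, 6.6 and 4.03 CPM in JQ1 day 1. *dnajc11b* had 3 counts in DMSO day 1 and 61 in JQ1 day 1, a ratio of 21.9 (95% exact interval 7.14 to 109, counting error only). Both *dnajb13* and *dnajc11b* passed the filter at day 1 only through the JQ1 libraries, so they had to differ to be tested. *hspb6* also needed JQ1 libraries to pass that filter. Germ-cell markers had 26.8 to 34.3 CPM in DMSO day 1 and 257 to 558 CPM in JQ1 day 1. Skin markers had 4.48 to 63.9 CPM in DMSO day 1 and 474 to 1401 CPM in JQ1 day 1. The part of either in these values was not tested. DMSO day 1 replicate 3 had the highest macrophage sum of its group (643 CPM) and the highest *cd74a* level (4514 CPM), while its *cd79a* level (6.23 CPM) was below that of replicate 2 (6.71 CPM). Without this library edgeR called 3 of 90 members higher and 3 lower, against 9.56% of all genes.

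At day 1 the groups overlapped in all 8 TRiC genes. Their log2 fold changes ranged from −0.47 to 0.33 with a median of −0.26. Of the 8, 0 had an unadjusted p under 0.05 or were called by edgeR or by DESeq2. With ERCC scaling all 8 were negative, with a median of −1.76. Then edgeR called 5 lower and DESeq2 6, against 41.4% of all genes called lower in edgeR. Summed levels were 3846 to 5331 CPM in DMSO day 1 and 3612 to 4163 CPM in JQ1 day 1. *cct5* had 651, 624 and 409 CPM and 432, 385 and 449 CPM (−0.39, SE 0.25, edgeR adjusted p = 0.388), with DMSO replicate 3 among the JQ1 values. The *cct2* gene ENSDARG00000104674 had 415, 183 and 269 CPM and 416, 299.8 and 362 CPM (0.33, SE 0.33, edgeR adjusted p = 0.593).

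The change of the JQ1 effect from day 1 to day 3 was tested over all 12 libraries. Of 96 members tested 0 passed in edgeR, as did 0% of all 18116 genes, and 0 members were called by DESeq2, while 6 had an unadjusted p under 0.05, against 6.94% of all genes. These included both *cct2* genes (differences of −1.39 and −1.14 on the log2 scale, unadjusted p = 0.00673 and 0.0169 and adjusted p = 0.718 for both, edgeR) and *cct8* (−0.97, adjusted p = 0.718, edgeR). All 8 TRiC genes had a negative difference, from −1.39 to −0.52. An effect of JQ1 on TRiC that differed between the days was therefore not shown. Of the 12 members called higher at day 3, 10 were tested at day 1 and 9 of them were higher there too, 5 without overlap. At least *dnajc11b*, *hspa8b* and *hspb6* needed JQ1 libraries to pass the filter at day 1 as well. Such genes were likelier to be tested if they were higher in JQ1, so their shared direction was partly set by the filter. Of the 13 called lower at day 3, 11 were lower at day 1, and *bag6l*, *dnajc27* and *hsph1* were lower without overlap. Of all genes tested at day 1, 16.3% lay above DMSO without overlap and 14.8% below it. How often other genes called at day 3 kept their direction at day 1 was not counted. The agreement is therefore not shown to be particular to the members. The days share no library.

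No member was called between the vehicle groups. Between DMSO day 3 and DMSO day 1 0 of 80 members tested were called by edgeR or DESeq2, as were 0% of 14106 genes in edgeR, and only *hspa5* had an unadjusted p under 0.05 (0.64 higher at day 3 on the log2 scale, adjusted p = 0.909, edgeR), against 4.84% of all genes. Together the 108 genes had 22773 ± 2141, 23391 ± 2087, 21187 ± 2819 and 18532 ± 2871 CPM without TMM (mean ± SD, n = 3) in DMSO day 1, JQ1 day 1, DMSO day 3 and JQ1 day 3, or 1.54% to 2.58% of the counts of a library.

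The 16 members that were not tested at day 3 had few counts. They were *bag2*, *hsf4*, *hspa1b*, *dnajb5*, *dnajc5b*, *dnajc22*, *dnajc28*, *hspa12a.1*, *hspa12a.2* and 7 small HSP genes (*hspb1*, *hspb2*, *hspb3*, *hspb7*, *hspb9*, *hspb9l* and *hspb15*), and *hspb3* had no counts in any library. The highest level among them was 14.9 CPM, that of *hspb1* in JQ1 day 3 replicate 2. A member that passed the filter only through the JQ1 libraries, such as *hsf2bp*, *hspb8* and *dnajc11b* with at most 2 counts in DMSO day 3, had to differ to be tested. The same held for *hspa8b*, *hspb6*, *dnajc6* and *hspa12a*, which were low in every DMSO day 3 library. *dnajb2* and *bag3* also needed JQ1 libraries to pass the filter. The median over the members stayed at −0.32 with *hsf2bp*, *hspb8* and *dnajc11b* at the lower bound of their ratio, which still lies above the median. No bound was set for the others.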

How the data were processed

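RNA-seq of sorted tumor cells was analysed in 12 libraries. The authors mapped strand-specific paired reads to GRCz11 with STAR 2.5.2a, kept uniquely mapped reads, and deposited raw counts per Ensembl gene from featureCounts; the strand setting of the counting was not given in the sources used here. The deposited DESeq2 1.12.4 tables hold the authors' fold changes and p-values and were not used. ERCC and transgene rows were kept out of library sizes. In R 4.3.3, edgeR 4.0.16 (filterByExpr, TMM, robust glmQLFit, glmQLFTest, two-sided) was fitted to 3 against 3 libraries per day, to all 12 for the change between days, and adjusted with Benjamini-Hochberg over all genes tested at 0.05. Scripts were tested on simulated data. DESeq2 1.42.0, ERCC scaling, no filter, a replicate block, a joint fit and leaving out each library were alternatives. Members and lists were chosen with earlier results of these data known. Named were canonical members whatever their change, and called members whose higher group had a mean of 10 CPM or more. *hsf2bp*, *hsf5*, *dnajb2*, *dnajb11*, *dnajb13*, *dnajc2*, *dnajc6*, *dnajc11*, *dnajc11b*, *hspa2*, *hspa12a*, *hspb6*, *hspb8*, *hspb11* and the *dnajb9* genes were named after their values were seen. Names shared by several genes are given with Ensembl identifiers.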

Additional observations from a re-analysis of the deposited data

How the results depend on the processing

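At day 3 the 25 calls among the members became 24 with DESeq2 size factors, 20 without a filter (12 lower and 8 higher), 32 with DESeq2, and 25 in a joint fit of the 12 libraries. Over all genes the 4058 calls became 3991, 3075, 6292 and 3969 in the same order. ERCC scaling gave 39 and DESeq2 with ERCC factors 53, against 5678 and 7707 over all genes. At day 1 the 0 calls became 53 with ERCC scaling, 58 with DESeq2 and ERCC factors, 10 with DESeq2, 4 in the joint fit and 1 without a filter (*dnajc27*). Over all genes the 7 calls became 6804, 7892, 2013, 854 and 348 in the same order. The change between days gave 0 calls in all alternatives but DESeq2 with ERCC factors (4, against 775 over all genes), and the DMSO days gave 0 throughout. With 1 library left out the calls ranged from 0 to 21 at day 3 and from 0 to 6 at day 1, and were 0 for the change between days and for the DMSO days. Over all genes these ranges were 0 to 3722 at day 3 and 0 to 1600 at day 1. The value of *hsp90ab1* at day 1 turned from 0.12 to −1.39 with DESeq2 and ERCC factors (DESeq2 adjusted p = 0.0344). Same-numbered libraries did not deviate together more than others (correlations of 0.002, 0.183 and −0.169 at day 3, against −0.312 to 0.289 for libraries of different numbers). So few values cannot exclude a shared batch. A replicate block gave 0 calls at day 3 and 0 at day 1, among the members and over all genes. The causes were not tested. For the 69 named results, the alternatives other than leaving out a library gave 483 values. Of these 398 kept their side of the threshold, 21 lost it and 63 gained it. Values uncalled in both fits were counted as kept even where their direction changed. Low counts limit the members under 1 CPM in DMSO.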
